A study of Rattus norvegicus with 16 samples.

Results

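The chemokine genes and chemokine receptor genes of rat tendon are described here. They were taken from the count table by gene symbol: every symbol that starts with Ccl, Cxcl, Cx3cl, Xcl, Ccr, Cxcr, Cx3cr, Xcr or Ackr followed by a number, which gave 55 of the 23285 genes listed. The 55 hold 34 ligands (20 CC, 12 CXC and 2 CX3C or XC ligands) and 21 receptors, 3 of them atypical. RNA was sequenced in 16 libraries of total RNA from Sprague Dawley rats, 4 for each of 2 hindlimb tendons (Achilles and patellar) and 2 forelimb tendons (forepaw flexor and supraspinatus). No treatment, genotype, age or sex is given in the labels, and the series was designed to set each tendon against each of the others. Whether the 4 libraries of a tendon came from separate animals is not stated in the labels, so p-values measure only the spread between these libraries, which may be technical.

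Chemokines are small secreted proteins that guide the movement of leukocytes along gradients held on the matrix and on vessel walls. They are named for the spacing of their first cysteines (CC, CXC, CX3C, XC) and signal through G protein-coupled receptors, while the atypical receptors bind and remove chemokines without G protein signalling. Some, such as CXCL12 and CCL21, are made by resting stroma and vessels, and others are switched on by inflammatory cytokines in stromal and immune cells.

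Library totals ran from 63397591 to 102491699 counts, and levels are CPM (a library's counts scaled to a common total by TMM, a trimmed mean of ratios between libraries), given as mean ± SD over 4 libraries. In a library, 3 counts corresponded to 0.0266 to 0.0485 CPM, and levels under that are at the floor of the measurement. The members took 0.124 to 0.209% of all counts in Achilles, 0.146 to 0.17% in patellar, 0.102 to 0.128% in flexor and 0.0641 to 0.0866% in supraspinatus libraries. Tendon fibroblast markers were present in every library, with a summed level of 60700 to 128000 CPM in Achilles, 50600 to 107000 in patellar, 23700 to 37200 in flexor and 34700 to 68800 CPM in supraspinatus tendon over 7 genes, most of it Col1a1. Other cell types differed between the tendons too. The 15 skeletal muscle markers summed to 126000 to 237000 CPM in supraspinatus and 16000 to 59500 CPM in flexor libraries, against 349 to 10400 in Achilles and 325 to 31400 CPM in patellar libraries. The 6 adipocyte markers summed to 2720 to 10000 CPM in Achilles and 4290 to 11200 in patellar tendon, against 386 to 790 in flexor and 139 to 358 CPM in supraspinatus tendon. Endothelial markers (7 genes) summed to 1100 to 1630 CPM in Achilles, 1380 to 2220 in patellar, 372 to 664 in flexor and 568 to 1130 CPM in supraspinatus tendon.

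Among leukocytes, the 12 macrophage and monocyte markers overlapped as a sum between all 4 tendons, with 1370 to 2390 CPM in Achilles, 1170 to 2160 in patellar, 1440 to 2520 in flexor and 924 to 1990 CPM in supraspinatus libraries. Lyz2 was the largest part of that sum, and 6 of the 12 genes differed among the tendons, where 75.6% of all 16948 tested genes did. Adgre1 had means of 16.91 CPM in Achilles, 30.85 in patellar, 5.95 in flexor and 6.33 CPM in supraspinatus tendon (adjusted p = 8.8e-06), Aif1 had 49.91, 67.05, 25.02 and 20.69 CPM (adjusted p = 0.00015) and Cd68 had 44.62, 51.03, 26.24 and 25.01 CPM (adjusted p = 0.0045). Cd14 was instead higher in the forelimb tendons, at 112.37, 71.75, 218.64 and 139.96 CPM in the same order (adjusted p = 5.5e-06). The 8 neutrophil and granulocyte markers, most of them Mpo, summed to 8.43 to 26 CPM in Achilles and 24.2 to 70.6 in patellar, against 1.43 to 1.73 in flexor and 0.991 to 1.58 CPM in supraspinatus libraries. Erythroid markers (3 genes) summed to 338 to 444 CPM in Achilles, 390 to 694 in patellar, 37.1 to 133 in flexor and 31.8 to 73.9 CPM in supraspinatus libraries. Mast cell markers (7 genes) summed to 97.8 to 205 CPM in Achilles, 202 to 407 in patellar, 78.8 to 177 in flexor and 23.3 to 29.3 CPM in supraspinatus libraries. Lymphocyte markers (10 genes) overlapped between the tendons as a sum, at 22.8 to 60.3 CPM, but this was mostly Cd4, which macrophages of the rat also express. Of the 9 tested, 7 differed among the tendons, which is near the 75.6% of all tested genes and so no result about lymphocytes. Cd2 had means of 0.83 CPM in Achilles, 1.13 in patellar, 0.19 in flexor and 0.24 CPM in supraspinatus tendon (adjusted p = 0.00021), Cd8a had 0.7, 1.07, 0.33 and 0.18 CPM (adjusted p = 0.0015) and Cd3e had 0.53, 0.82, 0.29 and 0.41 CPM (adjusted p = 0.021), each with the higher means in the hindlimb tendons. The 4 dendritic cell markers outside the members summed to 14.4 to 25.3 CPM in Achilles, 19.4 to 38.9 in patellar, 23.9 to 33 in flexor and 9.75 to 10.7 CPM in supraspinatus libraries. The part of adipocytes, vessels, blood and leukocytes in the differences between tendons described here was not tested, and in bulk tissue fewer cells of a type and less RNA per cell cannot be told apart.

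**Figure D1:**
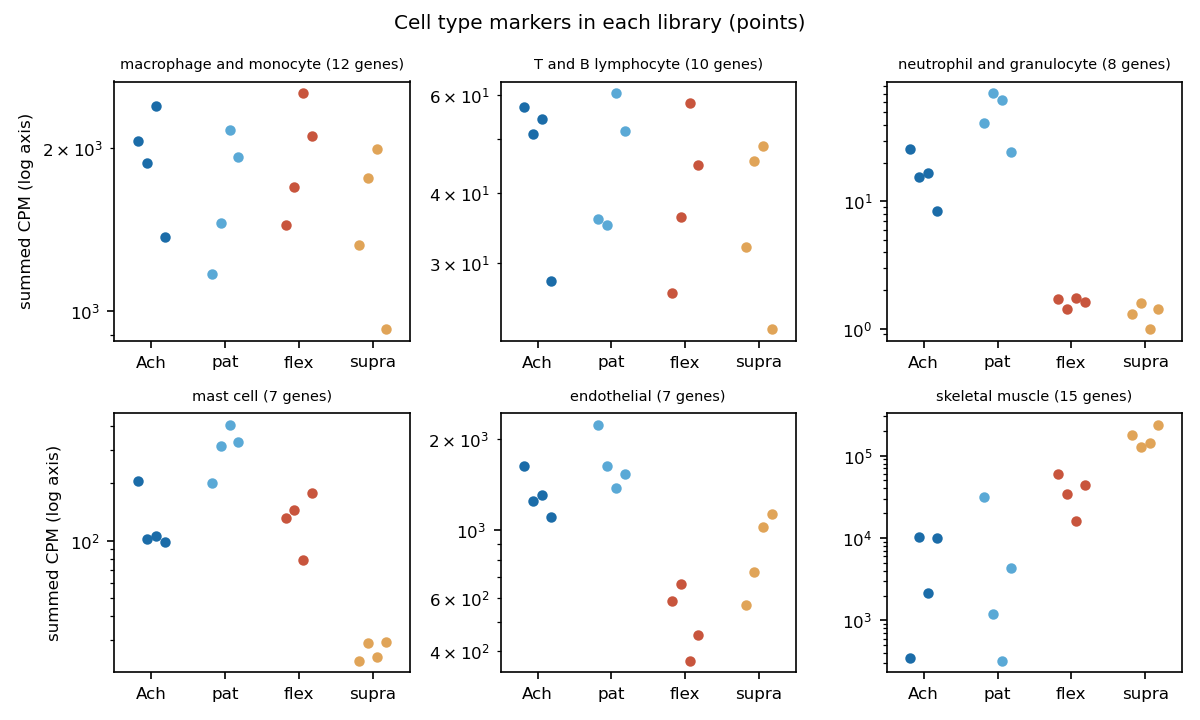
Summed CPM (log axis) of 6 lists of cell type markers in each library, 1 point per library, for the Achilles (Ach), patellar (pat), flexor (flex) and supraspinatus (supra) tendons. Macrophage markers overlapped between the tendons, neutrophil and endothelial markers were lower in flexor than in Achilles and patellar libraries, and skeletal muscle markers were highest in the supraspinatus libraries at 126000 to 237000 CPM.

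Chemokine and receptor genes stood higher in the 2 hindlimb tendons than in the 2 forelimb tendons far more often than the reverse, and differed little between Achilles and patellar tendon. Of the 46 members with enough counts to be tested, 36 differed among the 4 tendons (24 of 30 ligands and 12 of 16 receptors) by edgeR's quasi-likelihood test at an adjusted p under 0.05. That is 78.3%, close to the 75.6% of all 16948 tested genes that differed and is thus no result about the members. Against flexor tendon, 22 members were higher in Achilles tendon, where 23.5% of all genes were, and 6 were lower, where 24.1% were. Against supraspinatus tendon, 25 were higher in Achilles tendon (25.4% of all genes) and 3 lower (24.7%). Patellar tendon gave the same picture: 25 members were lower in flexor than in patellar tendon (24.7% of all genes) and 6 higher (25.8%), and 27 were higher in patellar than in supraspinatus tendon (28.8%) and 4 lower (27.5%). Between the forelimb tendons, 9 members were higher in flexor than in supraspinatus tendon (23.4% of all genes) and 4 were lower (24.3%). Between the hindlimb tendons, 3 were higher in Achilles than in patellar tendon (3.1% of all genes) and 1 was lower (2.06%). These comparisons share libraries, so they are not independent of each other.

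The median log2 difference of the 46 tested members, Achilles minus flexor, was 0.98, where that of all genes was 0.01. It was 1.33 for Achilles minus supraspinatus and 1.39 for patellar minus supraspinatus, where all genes had 0.05 both times, and -1.07 for flexor minus patellar (all genes 0.03). It was 0.41 for flexor minus supraspinatus (all genes -0.03) and 0.03 for Achilles minus patellar (all genes -0.01). Between Achilles and flexor tendon, the 17 tested CC ligands had a median of 1.79, with 11 higher in Achilles and 1 lower. CXC ligands were split there, with 5 of 11 higher, 3 lower and a median of -0.41. The 13 tested receptors had a median of 0.97, with 6 of them higher in Achilles tendon, while of the 3 atypical receptors Ackr2 and Ackr3 were lower in Achilles tendon and Ackr4 did not pass the test (0.24 ± 0.31). Which genes pass the filter on low counts bears on these medians and on the counts in each direction. Ccl20, Ccr3 and Xcl1 were above its cut of 0.113 CPM in every library of 1 tendon only, and Ccl1, Cxcl2 and Cxcl6 in every library of none. A further 11 members were above it in every library of 3 or 2 tendons only. Among them, Ccl5, Ccl12, Cxcr3 and Xcr1 were above it throughout in the hindlimb tendons alone. Cxcl11, Ccl17, Ccl22 and Cxcr2 fell under it in supraspinatus libraries alone. Such genes could pass the filter through the tendons where they were high, so the medians and the counts by direction rest in part on the filter.

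The scaling and the muscle in the samples bear on the supraspinatus comparisons in particular. With library totals in place of TMM, the median over all genes moved to 0.47 for Achilles, 0.31 for flexor and 0.46 for patellar minus supraspinatus. The split in these pairs became 32 higher and 1 lower for Achilles, 16 and 3 for flexor, and 32 and 2 for patellar tendon. With muscle marker level added to the model as a covariate, 7 of the 28 calls between Achilles and supraspinatus, 11 of 31 between patellar and supraspinatus, 18 of 28 between Achilles and flexor and 23 of 31 between flexor and patellar tendon remained. All 4 calls between Achilles and patellar and 10 of 13 between flexor and supraspinatus tendon remained. Since every supraspinatus library held more muscle RNA than every other library, tendon and muscle content cannot be told apart there. The 7 calls against supraspinatus that remained in Achilles tendon were Ccl5, Ccl12, Ccl21, Ccl24, Cx3cr1, Ackr2 and Ackr3. In patellar tendon they were Ccl5, Ccl12, Ccl22, Ccl24, Cxcl9, Cxcl10, Cxcl12, Cxcl14, Ccr7, Ackr2 and Ackr3. The calls lost were Ccl1, Ccl4, Ccl6, Ccl11, Ccl22, Cxcl1, Cxcl2, Cxcl13, Cxcl16 and Cx3cr1 between Achilles and flexor, Ccl1, Ccl4, Ccl11, Ccl19, Ccr3, Cxcr6, Cx3cr1 and Xcl1 between flexor and patellar, and Ccl24, Cxcl6 and Ccr1 between flexor and supraspinatus tendon. In 39 of all 62 lost calls the log2 difference stayed within 1.5 times of the value without the covariate.

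**Figure D2:**
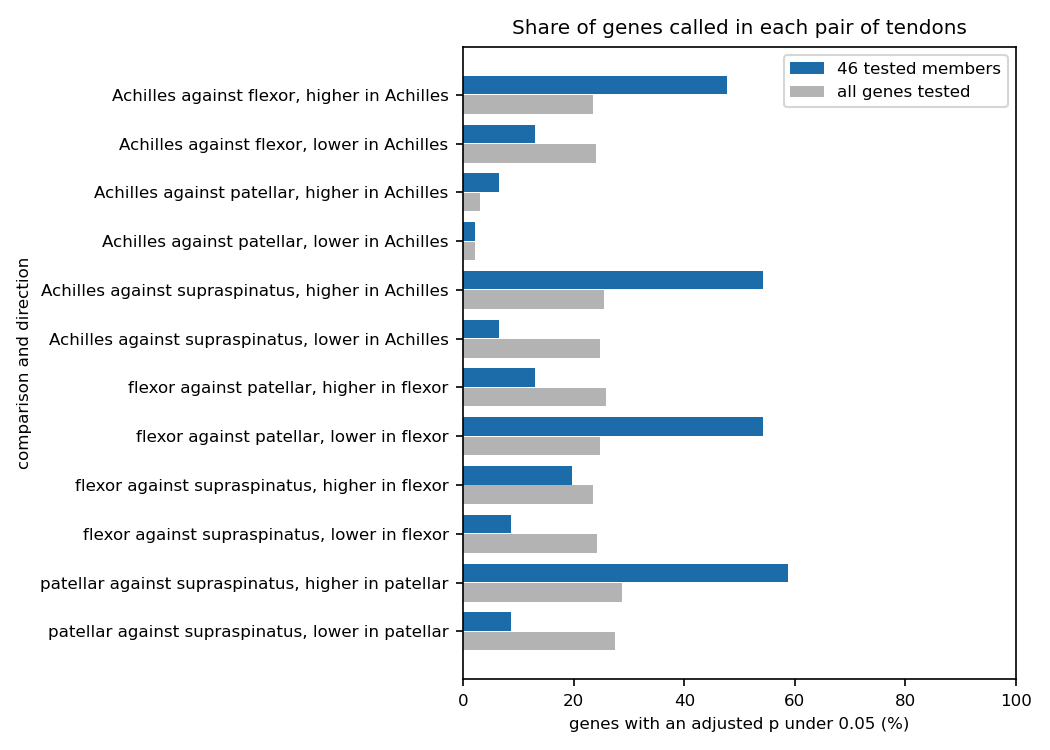
Share of genes (horizontal axis, percent) with an adjusted p under 0.05 in each pair of tendons and direction, for the 46 tested members (blue) and all 16948 tested genes (grey). The members' share was 47.8 to 58.7% in the directions higher in Achilles or patellar tendon than in flexor or supraspinatus tendon, where that of all genes was 23.5 to 28.8%.

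**Figure D3:**
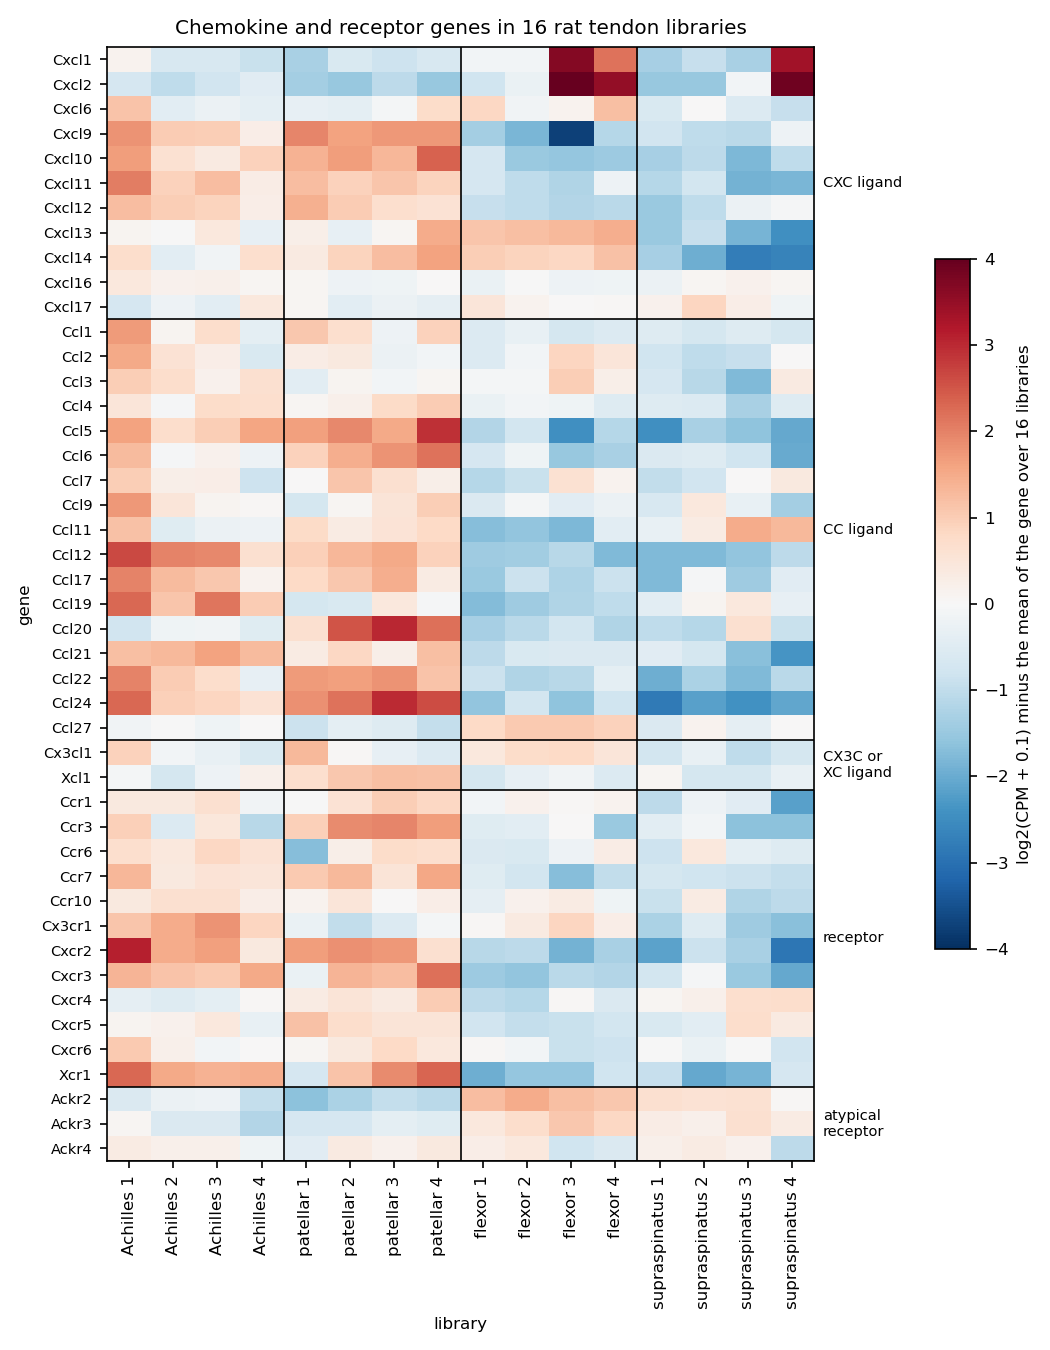
Heat map of the tested members described here (rows, by class) in the 16 libraries (columns), coloured by log2(CPM + 0.1) minus the gene's mean over the libraries, with colours ending at 4 log2 units. Most CXCR3 and CC ligands are red in the Achilles and patellar columns, Ackr2 and Ackr3 are red in the flexor columns, and Cxcl1 and Cxcl2 are dark red in flexor 3, flexor 4 and supraspinatus 4 alone.

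Cxcl12 (ENSRNOG00000013589), the stromal chemokine that holds CXCR4-bearing cells in their niches, was higher in the hindlimb tendons. It stood at 520, 438, 414 and 266 CPM in Achilles, 599, 451, 352 and 331 in patellar, 117, 111, 98.3 and 105 in flexor and 79, 109, 188 and 214 CPM in supraspinatus libraries. Every Achilles and patellar library was above every flexor and supraspinatus library. Its mean was 410 ± 106 CPM in Achilles, 433 ± 122 in patellar, 108 ± 8.01 in flexor and 148 ± 63.8 CPM in supraspinatus tendon. On the log2 scale Achilles exceeded flexor tendon by 1.93 ± 0.3 (± SE, as for every difference that follows; adjusted p = 0.00012) and supraspinatus tendon by 1.47 ± 0.29 (adjusted p = 0.00077). Patellar exceeded flexor tendon by 2.01 ± 0.3 (adjusted p = 7.3e-05), while Achilles and patellar tendon differed by 0.08 ± 0.29, which did not pass the test. With the muscle covariate the Achilles difference from supraspinatus tendon was 1.62 and no longer passed (adjusted p = 0.063).

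Cxcl14, a chemokine of resting epithelium and stroma that attracts myeloid cells, was set apart by its low level in supraspinatus tendon. Its levels were 46.8, 21.4, 26.2 and 46.4 CPM in Achilles, 37, 54, 68.9 and 88.9 in patellar, 57.3, 53.4, 51.7 and 64.9 in flexor and 11.4, 7.46, 4.13 and 4.42 CPM in supraspinatus libraries. The highest supraspinatus library lay below the lowest library of each of the other tendons, and the other 3 tendons overlapped except that all flexor libraries were above all Achilles libraries, a difference that did not pass the test (adjusted p = 0.11). The log2 difference from supraspinatus tendon was 3.18 ± 0.37 for patellar (adjusted p = 9e-06), 3.05 ± 0.37 for flexor (adjusted p = 1.8e-05) and 2.36 ± 0.36 for Achilles tendon (adjusted p = 9.3e-05). Cxcl13, which draws B cells through CXCR5, was likewise lowest in supraspinatus tendon but highest in flexor tendon. It stood at 9.78, 9.02, 12.2 and 7.22 CPM in Achilles, 10.9, 7.22, 9.6 and 25.8 in patellar, 20, 21, 22.7 and 25.5 in flexor and 3.21, 4.83, 2.47 and 1.6 CPM in supraspinatus libraries. All 4 flexor libraries were above all Achilles and supraspinatus libraries, and patellar 4, at 25.8 CPM, was the highest library of all. Flexor exceeded supraspinatus tendon by 2.88 ± 0.39 (adjusted p = 4e-05) and Achilles tendon by 1.22 ± 0.36 (adjusted p = 0.013). Its difference from patellar tendon, 0.74 ± 0.36, did not pass (adjusted p = 0.1).

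Cxcl16, a membrane-bound ligand of CXCR6 that also takes up oxidised lipids, was nearly level across the tendons. It was at 64, 53.8, 55.6 and 50.6 CPM in Achilles, 50.1, 41.2, 42.5 and 48 in patellar, 40.3, 47.5, 41.4 and 42.8 in flexor and 40.8, 50.6, 54.1 and 50.6 CPM in supraspinatus libraries. The 4 tendons differed with an adjusted p of 0.018, through the 0.38 ± 0.1 by which Achilles exceeded flexor tendon (adjusted p = 0.0073), a small difference whose groups did not overlap. Cxcl17, a mucosal chemokine, stayed between 21 and 69 counts in every library and did not pass the test (adjusted p = 0.18).

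Cxcl9, Cxcl10 and Cxcl11 are the interferon-inducible ligands of CXCR3, the receptor of activated T and NK cells, and they were each lower in both forelimb tendons. The 3 genes lie side by side in the RefSeq rat annotation (build GRCr8), with no other coding gene between them. Their upstream sequences are shown with those of Cxcl1 and Cxcl2, a neighbouring pair described next, because the first group went by limb while the pair was high in 3 single libraries; the 5 were chosen after the values were seen. Each line gives the 250 bases before the RefSeq start in GRCr8 (the counts were made on rn6), 5′ to 3′, with matches to the NF-kB motif GGANTTTCC or the interferon-response motif TTTCNNTTT, on either strand, in capitals.
Cxcl9, chr14:16006916-16007165, strand plus: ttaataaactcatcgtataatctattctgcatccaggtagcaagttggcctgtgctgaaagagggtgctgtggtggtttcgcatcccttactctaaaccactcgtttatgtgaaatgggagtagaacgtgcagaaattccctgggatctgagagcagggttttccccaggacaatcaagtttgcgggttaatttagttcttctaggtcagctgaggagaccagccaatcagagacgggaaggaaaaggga
Cxcl10, chr14:15988816-15989065, strand plus: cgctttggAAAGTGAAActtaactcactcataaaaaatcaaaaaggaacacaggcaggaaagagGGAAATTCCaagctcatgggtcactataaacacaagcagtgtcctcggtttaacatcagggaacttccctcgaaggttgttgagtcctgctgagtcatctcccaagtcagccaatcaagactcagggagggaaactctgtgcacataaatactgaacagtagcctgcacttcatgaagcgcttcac
Cxcl11, chr14:15973478-15973727, strand plus: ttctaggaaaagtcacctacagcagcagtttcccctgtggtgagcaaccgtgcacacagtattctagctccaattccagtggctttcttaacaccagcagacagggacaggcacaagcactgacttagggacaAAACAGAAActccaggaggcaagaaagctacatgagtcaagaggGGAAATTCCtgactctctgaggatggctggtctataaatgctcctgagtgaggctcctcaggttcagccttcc
Cxcl1, chr14:17479322-17479571, strand minus: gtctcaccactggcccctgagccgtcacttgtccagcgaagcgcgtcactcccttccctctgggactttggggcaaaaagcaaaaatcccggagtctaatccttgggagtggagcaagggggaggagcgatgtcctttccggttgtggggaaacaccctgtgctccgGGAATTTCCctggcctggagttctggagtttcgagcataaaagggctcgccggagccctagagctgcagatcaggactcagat
Cxcl2, chr14:17467256-17467505, strand minus: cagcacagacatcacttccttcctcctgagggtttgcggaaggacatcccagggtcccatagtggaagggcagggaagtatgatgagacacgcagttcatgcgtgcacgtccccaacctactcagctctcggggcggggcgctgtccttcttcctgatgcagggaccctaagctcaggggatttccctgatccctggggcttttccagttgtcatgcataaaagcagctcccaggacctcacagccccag
The NF-kB letters were found in 1.08% of 33469 RefSeq promoters of this length and in 5 of the 42 members with a promoter in the table: Cxcl1, Cxcl6, Cxcl10, Cxcl11 and Ccr3. The interferon-response letters were found in 10.3% of promoters and in 7 members, Cxcl10, Cxcl11, Cxcl16, Ccl7, Ccl19, Xcl1 and Cxcr1. In Cxcl10 and Cxcl11 both motifs stood in the window, and in Cxcl9 and Cxcl2 these letters did not occur. The AP-1 letters TGANTCA were in 6.34% of promoters and in 7 members, and the C/EBP letters TTGCNNAA in 9.22% and in 6 members, Cxcl2 among them. A match is a description of letters and not of a bound site. Only 1 form of each motif was searched, so similar letters such as ggggatttcc in the Cxcl2 window were not counted, and a window without a match may hold another form.

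Cxcl9 (ENSRNOG00000022242) stood at 37.6, 21.7, 21.1 and 12.7 CPM in Achilles, 41.3, 33, 35.8 and 36 in patellar, 4.13, 2.94, 0.71 and 4.82 in flexor and 6.19, 5.25, 5 and 9.16 CPM in supraspinatus libraries. Every hindlimb library was above every forelimb library, and flexor 3 had the lowest value. Its mean was 23.3 ± 10.4 CPM in Achilles, 36.5 ± 3.47 in patellar, 3.15 ± 1.8 in flexor and 6.4 ± 1.91 CPM in supraspinatus tendon. Patellar exceeded flexor tendon by 3.53 ± 0.47 (adjusted p = 2.8e-05) and supraspinatus tendon by 2.51 ± 0.45 (adjusted p = 0.00028), and Achilles exceeded them by 2.88 ± 0.45 (adjusted p = 0.00015) and 1.86 ± 0.44 (adjusted p = 0.0026). Flexor and supraspinatus libraries did not overlap, but their difference of 1.02 ± 0.43 did not pass the test (adjusted p = 0.065).

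Cxcl10 (ENSRNOG00000022256), also known as IP-10, had levels of 5.16, 2.39, 2.02 and 3.03 CPM in Achilles, 4.22, 5.13, 4.03 and 8.38 in patellar, 0.925, 0.494, 0.467 and 0.495 in flexor and 0.552, 0.7, 0.377 and 0.712 CPM in supraspinatus libraries. The lowest hindlimb library, at 2.02 CPM, was above the highest forelimb library, flexor 1 at 0.925 CPM. Patellar exceeded flexor tendon by 3.19 ± 0.37 (adjusted p = 8.7e-06) and Achilles exceeded it by 2.4 ± 0.36 (adjusted p = 9.2e-05). Patellar exceeded supraspinatus tendon by 3.22 ± 0.37 (adjusted p = 8.4e-06), and the forelimb tendons had means of 0.595 ± 0.22 and 0.585 ± 0.157 CPM. Cxcl11, which also binds the atypical receptor ACKR3, was also higher in the hindlimb tendons. It was at 2.06, 0.88, 1.14 and 0.545 CPM in Achilles, 1.13, 0.894, 1.03 and 0.865 in patellar, 0.226, 0.161, 0.126 and 0.35 in flexor and 0.135, 0.216, 0.0419 and 0.0485 CPM in supraspinatus libraries. Again no forelimb library reached the lowest hindlimb library, and Achilles exceeded flexor tendon by 2.41 ± 0.49 (adjusted p = 0.001) and supraspinatus tendon by 3.35 ± 0.53 (adjusted p = 0.00012). Their receptor gene Cxcr3 followed the same order of limbs at low counts. It was at 1.11, 0.942, 0.877 and 1.27 CPM in Achilles, 0.292, 1.12, 1.02 and 2.11 in patellar, 0.0755, 0.0605, 0.126 and 0.113 in flexor and 0.184, 0.357, 0.0698 and 0.0162 CPM in supraspinatus libraries. Achilles exceeded flexor tendon by 3.46 ± 0.67 (adjusted p = 0.00073) and patellar exceeded it by 3.58 ± 0.67 (adjusted p = 0.00051), but patellar 1, at 0.292 CPM, lay below the highest supraspinatus library. Against supraspinatus tendon, the Achilles calls of Cxcl9, Cxcl10, Cxcl11 and Cxcr3 were all lost with the muscle covariate, at differences of 1.71 (adjusted p = 0.18), 2.03 (adjusted p = 0.053), 2.54 (adjusted p = 0.067) and 1.91 (adjusted p = 0.3). Against flexor tendon all 4 remained.

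Cxcl1 and Cxcl2 attract neutrophils through CXCR2, and their RNA was high in 3 single libraries and not in a tendon as a whole. Cxcl1 stood at 1.74, 0.963, 0.968 and 0.801 CPM in Achilles, 0.572, 0.979, 0.832 and 0.967 in patellar, 1.45, 1.44, 21.1 and 7.32 in flexor and 0.564, 0.777, 0.572 and 17 CPM in supraspinatus libraries. Flexor 3, flexor 4 and supraspinatus 4 held 2167, 710 and 1053 counts, while every other library was at or under 1.74 CPM. Cxcl2 had counts of 7, 14, 1056 and 308 in flexor and 0, 0, 12 and 259 in supraspinatus libraries, against 9, 4, 7 and 10 in Achilles and 1, 0, 3 and 0 in patellar libraries. In CPM these were 0.0661, 0.141, 10.3 and 3.17 in flexor and 0, 0, 0.167 and 4.19 in supraspinatus libraries, so the same 3 libraries stood apart, and no fold is given against patellar libraries at 0 to 3 counts. The tests passed for Cxcl1 between flexor and patellar tendon (3.22 ± 1.1, adjusted p = 0.028) and between flexor and Achilles tendon (2.8 ± 1.1, adjusted p = 0.049). Without flexor 3 they fell to 2 (adjusted p = 0.14) and 1.58 (adjusted p = 0.24), and neither passed. Cxcl2 passed between flexor and patellar tendon (adjusted p = 0.0093), but not with limma-voom (adjusted p = 0.12), between flexor and Achilles tendon (adjusted p = 0.023; 0.089 without flexor 3) and between supraspinatus and patellar tendon (adjusted p = 0.027; 0.48 without supraspinatus 4).

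Il1b, which encodes the cytokine interleukin-1 beta, was also highest in supraspinatus 4, at 15.4 CPM against 0.466 to 1.23 in the other supraspinatus libraries, and in flexor 3, at 7.1 CPM against 0.557 to 1.9 in the other flexor libraries. The patellar libraries, with at most 0.979 CPM of Cxcl1, had 2.58, 6.94, 7.35 and 4.44 CPM of Il1b. Cxcl6, a further neutrophil attractant, had at most 36 counts and did not differ among the tendons (adjusted p = 0.15), and Cxcl3 had at most 18 counts and was not tested. Cxcr2, the receptor of these ligands on neutrophils, went by limb instead. It was at 9.42, 2.94, 3.33 and 1.35 CPM in Achilles, 3.37, 3.83, 3.51 and 1.59 in patellar, 0.406, 0.433, 0.195 and 0.35 in flexor and 0.147, 0.509, 0.349 and 0.0485 CPM in supraspinatus libraries. All hindlimb libraries were above all forelimb libraries, with Achilles 1 far above the rest, and Achilles exceeded flexor tendon by 3.62 ± 0.64 (adjusted p = 0.00038) and patellar exceeded it by 3.15 ± 0.63 (adjusted p = 0.00087). The neutrophil markers were ordered the same way, at 8.43 CPM or more in every hindlimb and 1.73 CPM or less in every forelimb library, and their part in the Cxcr2 difference was not tested.

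**Figure D4:**
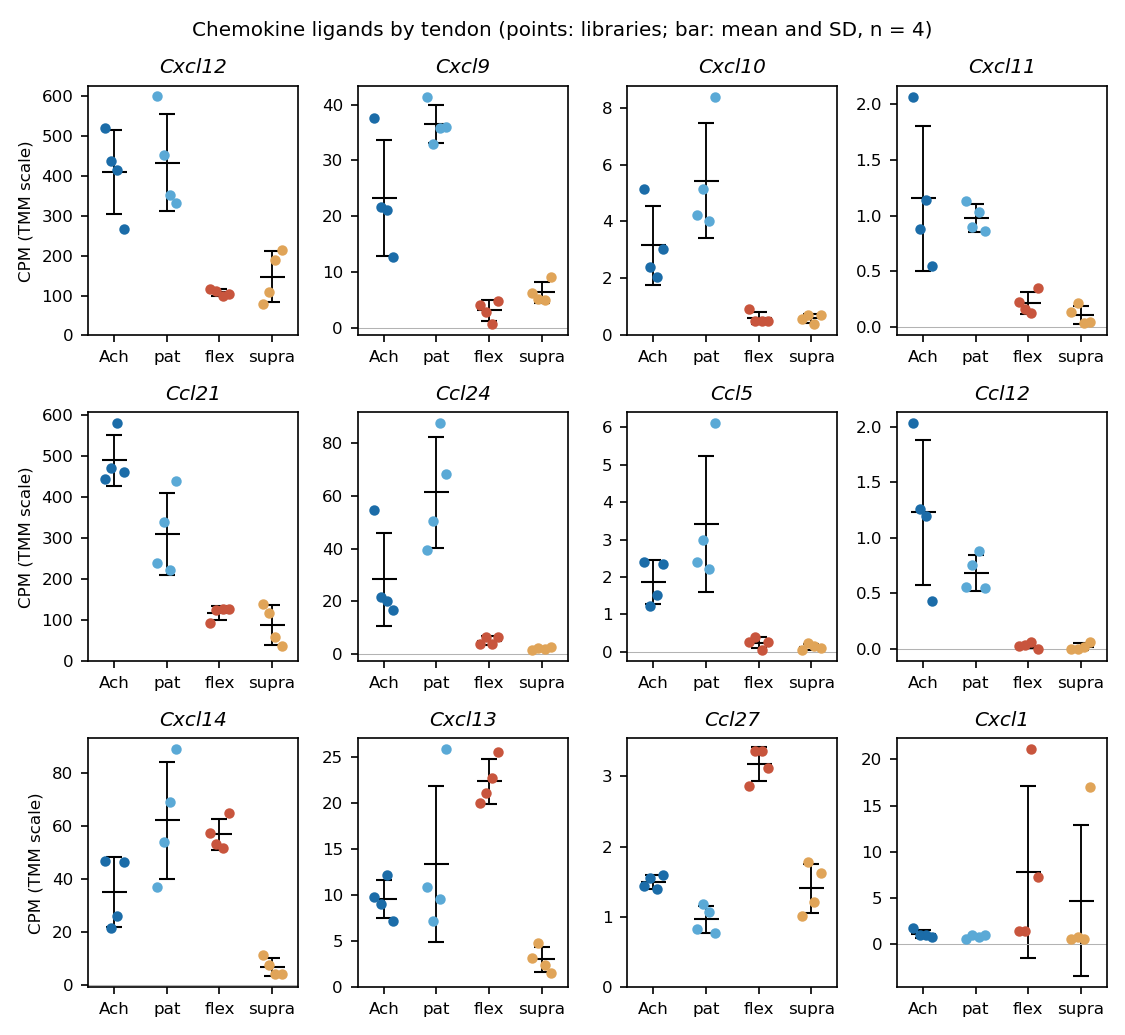
Levels of 12 ligands in CPM (vertical axes from 0, TMM scale) by tendon, with 1 point per library and the mean and SD of 4 libraries. Cxcl12, Cxcl9, Cxcl10, Cxcl11, Ccl21, Ccl24, Ccl5 and Ccl12 are higher in every Achilles and patellar library than in every flexor and supraspinatus library, and the Cxcl1 panel shows the 3 libraries at 7.32, 17 and 21.1 CPM.

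Ccl21 and Ccl19 guide dendritic cells and naive T cells through CCR7, and Ccl21 is made by lymphatic endothelium. Ccl21 (ENSRNOG00000034290) fell into the same order of limbs. It stood at 443, 471, 579 and 460 CPM in Achilles, 238, 339, 223 and 438 in patellar, 92.2, 124, 127 and 127 in flexor and 139, 118, 60.3 and 37.4 CPM in supraspinatus libraries. Achilles libraries were above all others, patellar libraries were above both forelimb tendons, and the forelimb tendons overlapped. Achilles exceeded flexor tendon by 2.05 ± 0.34 (adjusted p = 0.00021) and supraspinatus tendon by 2.46 ± 0.35 (adjusted p = 4.9e-05), and the 0.66 ± 0.33 over patellar tendon did not pass (adjusted p = 0.25). Lymphatic endothelial markers (4 genes) did not follow this order as a sum. They summed to 183 to 313 CPM in Achilles, 131 to 183 in patellar, 188 to 296 in flexor and 173 to 316 CPM in supraspinatus libraries. Most of that was Lyve1, with means of 154.76, 88.19, 167.37 and 172.11 CPM in the same order (adjusted p = 0.018). Flt4 was instead highest in Achilles tendon, at 35.48, 26.6, 20.26 and 26.85 CPM (adjusted p = 0.014). Prox1 and Pdpn did not pass (adjusted p = 0.26 and 0.086). The part of these markers in the Ccl21 difference was not tested. Rodent genomes hold near-identical copies of Ccl21 and Ccl27, so reads may be shared and these levels are uncertain. Ccl19 was higher in Achilles than in patellar tendon. It was at 4.92, 2.11, 4.4 and 1.97 CPM in Achilles, 0.535, 0.567, 1.27 and 0.891 in patellar, 0.208, 0.282, 0.35 and 0.402 in flexor and 0.662, 1.01, 1.27 and 0.712 CPM in supraspinatus libraries. Every Achilles library was above every other library, by 2.04 ± 0.38 over patellar (adjusted p = 0.0088), 3.43 ± 0.4 over flexor (adjusted p = 1.3e-05) and 1.87 ± 0.38 over supraspinatus tendon (adjusted p = 0.00083). The patellar call was lost with that pair fitted alone (2.03, adjusted p = 0.058), and with the muscle covariate the difference from supraspinatus tendon fell to 0.27 (adjusted p = 0.77). Their receptor Ccr7 had 5 to 126 counts, with means of 0.704 ± 0.277 CPM in Achilles, 0.974 ± 0.304 in patellar, 0.157 ± 0.0835 in flexor and 0.172 ± 0.0211 CPM in supraspinatus tendon, and passed the test between each hindlimb and each forelimb tendon.

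Ccl24 and Ccl11 are eotaxins, which attract eosinophils through CCR3, and went different ways. Ccl24 (ENSRNOG00000031162) stood at 54.8, 21.5, 20.1 and 16.7 CPM in Achilles, 39.3, 50.6, 87.6 and 68.3 in patellar, 3.61, 6.56, 3.59 and 6.28 in flexor and 1.46, 2.39, 2.01 and 2.54 CPM in supraspinatus libraries. Each hindlimb library was above each forelimb library, and flexor libraries were above supraspinatus libraries. Patellar exceeded supraspinatus tendon by 4.87 ± 0.43 (adjusted p = 1.2e-06), a 29.2-fold difference, and flexor tendon by 3.62 ± 0.4 (adjusted p = 6.5e-06). Achilles exceeded flexor tendon by 2.5 ± 0.38 (adjusted p = 0.00012), and the 1.12 ± 0.37 by which patellar exceeded Achilles tendon did not pass (adjusted p = 0.09). The smaller difference between flexor and supraspinatus tendon, 1.26 ± 0.38 (adjusted p = 0.014), was lost with limma-voom (1.23, adjusted p = 0.1) and fell to 0.69 with the muscle covariate (adjusted p = 0.1). Ccl11 was instead lowest in flexor tendon. It was at 5.01, 1.53, 1.83 and 1.89 CPM in Achilles, 3.75, 2.79, 3.26 and 3.89 in patellar, 0.604, 0.665, 0.564 and 1.62 in flexor and 1.78, 2.75, 6.25 and 5.52 CPM in supraspinatus libraries. Supraspinatus exceeded flexor tendon by 2.24 ± 0.48 (adjusted p = 0.0015) and patellar exceeded it by 1.99 ± 0.48 (adjusted p = 0.0032), without overlap. The Achilles difference of 1.57 ± 0.47 from flexor tendon (adjusted p = 0.013) was 1.02 without Achilles 1 (adjusted p = 0.066) and 1.03 with the muscle covariate (adjusted p = 0.25). The receptor Ccr3 had 0 to 83 counts, and stood at 0.499, 1.05, 1.1 and 0.903 CPM in patellar libraries and at 0.505 CPM or less elsewhere, so that patellar tendon overlapped with Achilles 1 alone.

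Ccl6, a rodent chemokine of myeloid cells, was highest in patellar tendon. It stood at 72.9, 29, 33.9 and 26.1 CPM in Achilles, 56.8, 82.2, 105 and 137 in patellar, 19, 27, 10.4 and 12.3 in flexor and 20.3, 21.2, 17.3 and 7.35 CPM in supraspinatus libraries. No patellar library overlapped the forelimb tendons, and patellar exceeded flexor tendon by 2.47 ± 0.43 (adjusted p = 0.00028) and supraspinatus tendon by 2.52 ± 0.43 (adjusted p = 0.00021). Achilles tendon passed against flexor (1.23 ± 0.41, adjusted p = 0.024) and supraspinatus tendon (1.29 ± 0.42, adjusted p = 0.018). Without Achilles 1, at 72.9 CPM, these were 0.79 (adjusted p = 0.11) and 0.84 (adjusted p = 0.082) and no longer passed. With the muscle covariate the supraspinatus difference was 1.24 for patellar (adjusted p = 0.22) and -0.04 for Achilles tendon (adjusted p = 0.98), and the Achilles difference from flexor tendon was 0.35 (adjusted p = 0.65). Its neighbour Ccl9 had 5 to 160 counts and did not pass (adjusted p = 0.086).

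Ccl5, Ccl4 and Ccl3 are inflammatory CC chemokines (Ccl3 and Ccl5 are ligands of CCR1) made by activated T cells, NK cells and macrophages. Ccl5 was at 2.39, 1.22, 1.51 and 2.35 CPM in Achilles, 2.41, 2.98, 2.22 and 6.11 in patellar, 0.264, 0.393, 0.0486 and 0.268 in flexor and 0.049, 0.229, 0.167 and 0.0971 CPM in supraspinatus libraries. Hindlimb libraries were all at 1.22 CPM or more and forelimb libraries all at 0.393 CPM or less. Patellar exceeded supraspinatus tendon by 4.64 ± 0.6 (adjusted p = 2e-05) and flexor tendon by 3.81 ± 0.56 (adjusted p = 6.9e-05), and Achilles exceeded flexor tendon by 2.93 ± 0.54 (adjusted p = 0.00053). These calls remained in every setting tried, the muscle covariate included. Ccl4 differed less. It was at 1.21, 0.797, 1.45 and 1.38 CPM in Achilles, 0.888, 0.964, 1.47 and 1.76 in patellar, 0.67, 0.766, 0.72 and 0.546 in flexor and 0.552, 0.535, 0.279 and 0.55 CPM in supraspinatus libraries. Achilles exceeded supraspinatus tendon by 1.33 ± 0.29 (adjusted p = 0.0016) and flexor tendon by 0.84 ± 0.28 (adjusted p = 0.025). The flexor call was lost without Achilles 3, Achilles 4 or flexor 4, at adjusted p-values of 0.056 to 0.061. Ccl3, with 6 to 128 counts, passed between Achilles and supraspinatus tendon (1.49 ± 0.48, adjusted p = 0.019), a call lost without supraspinatus 2 and with the muscle covariate (0.95, adjusted p = 0.52), and did not pass among the 4 tendons (adjusted p = 0.055).

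Ccl17 and Ccl22, the CCR4 ligands of dendritic cells, lie on either side of Cx3cl1 in the RefSeq gene order and were both higher in the hindlimb tendons. Ccl22 was at 1.83, 0.89, 0.686 and 0.289 CPM in Achilles, 1.47, 1.4, 1.6 and 0.967 in patellar, 0.17, 0.111, 0.126 and 0.268 in flexor and 0.0245, 0.102, 0.0419 and 0.129 CPM in supraspinatus libraries. Ccl17 was at 2.55, 1.52, 1.32 and 0.634 CPM in Achilles, 1.07, 1.32, 1.72 and 0.738 in patellar, 0.142, 0.272, 0.185 and 0.268 in flexor and 0.0981, 0.548, 0.153 and 0.388 CPM in supraspinatus libraries. For both genes every hindlimb library was above every flexor and supraspinatus library. Patellar exceeded flexor tendon by 3 ± 0.53 for Ccl22 (adjusted p = 0.00033) and by 2.48 ± 0.52 for Ccl17 (adjusted p = 0.0012). Their receptor Ccr4 had at most 6 counts in a library and was not tested. Cx3cl1, which lies between these 2 ligands, showed another pattern and is described with its receptor.

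Ccl2, Ccl7 and Ccl12 attract monocytes through CCR2 and follow each other in the RefSeq gene order together with Ccl11 and Ccl1, but only Ccl12 differed clearly. Ccl2 was at 86.9, 45, 36.4 and 19.7 CPM in Achilles, 37.5, 39.8, 25.5 and 28.1 in patellar, 20.6, 28.1, 54.7 and 42.3 in flexor and 17.3, 14.8, 16 and 30.4 CPM in supraspinatus libraries. The tendons overlapped, with Achilles 1 at 86.9 CPM the highest library and supraspinatus 4, at 30.4 CPM, above the other supraspinatus libraries at 14.8 to 17.3 CPM. Among the 4 tendons Ccl2 did not pass (adjusted p = 0.062), and its difference between Achilles and supraspinatus tendon, 1.26 ± 0.4 (adjusted p = 0.017), was 0.78 without Achilles 1 (adjusted p = 0.081) and 0.27 with the muscle covariate (adjusted p = 0.83). Ccl7 was at 20.7, 12.4, 12.5 and 5.9 CPM in Achilles, 10.6, 22.7, 16.4 and 12.3 in patellar, 4.65, 5.63, 16.1 and 11.6 in flexor and 5.23, 6.1, 10.5 and 13.7 CPM in supraspinatus libraries. It overlapped between all tendons and did not pass (adjusted p = 0.29). Ccl12 was at 2.03, 1.26, 1.2 and 0.434 CPM in Achilles and 0.559, 0.752, 0.884 and 0.547 CPM in patellar libraries. In flexor and supraspinatus libraries it had 3, 3, 6 and 0 and 0, 0, 1 and 4 counts, at or near the floor, so levels are given and no fold. It passed between each hindlimb and each forelimb tendon, with adjusted p-values of 6.8e-05 for Achilles against flexor and 0.00013 for patellar against supraspinatus tendon. These calls remained in the 25 settings that fitted Ccl12, which the stricter filter left out. The receptor gene Ccr2 was not analysed here. Ccl1, a ligand of CCR8, had at most 48 counts, with 1, 3, 0 and 1 in flexor and 1, 0, 1 and 0 in supraspinatus libraries, and passed between each hindlimb and each forelimb tendon.

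Ccl20, which draws cells through CCR6, was the member that was lower in Achilles than in patellar tendon. Its levels were 0.328, 1.48, 2.14 and 1.17 CPM in patellar and 0.062, 0.145, 0.151 and 0.1 CPM in Achilles libraries. It had counts of 1, 3, 7 and 2 in flexor and 3, 2, 24 and 3 in supraspinatus libraries, where supraspinatus 3, at 0.335 CPM, just passed patellar 1. Patellar exceeded Achilles tendon by 3.47 ± 0.75 (adjusted p = 0.019), a call lost without Achilles 2 (adjusted p = 0.055) or patellar 3 (adjusted p = 0.059). Its receptor Ccr6 had 9 to 111 counts and did not pass (adjusted p = 0.2). Ccl27, a CCR10 ligand known from skin, was highest in flexor tendon. It was at 1.44, 1.56, 1.4 and 1.6 CPM in Achilles, 0.827, 1.19, 1.07 and 0.776 in patellar, 2.86, 3.36, 3.36 and 3.12 in flexor and 1.02, 1.78, 1.21 and 1.62 CPM in supraspinatus libraries. Every flexor library was above every other library, by 1.72 ± 0.2 over patellar (adjusted p = 9.4e-06), 1.17 ± 0.2 over supraspinatus (adjusted p = 0.00022) and 1.08 ± 0.19 over Achilles tendon (adjusted p = 0.00044). The 4 keratinocyte markers summed to 5.19 to 11.8 CPM over Achilles and patellar, 9.21 to 9.95 in flexor and 7.02 to 9.24 CPM in supraspinatus libraries, without setting flexor tendon apart from Achilles tendon. Most of that sum was Krt10, which did not pass (adjusted p = 0.34), nor did Krt1 or Krt5. Krt14 differed, with means of 0.34 CPM in Achilles, 0.04 in patellar, 0.45 in flexor and 0.01 CPM in supraspinatus tendon (adjusted p = 0.0043). The part of these markers in the Ccl27 difference was not tested.

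Cx3cl1, or fractalkine, is a membrane-bound chemokine of endothelium and nerve whose receptor CX3CR1 marks monocytes and resident macrophages. It was at 45.3, 22.3, 19.6 and 15.6 CPM in Achilles, 59.9, 24.7, 19 and 16.3 in patellar, 32.6, 39.9, 41.8 and 33.6 in flexor and 14.5, 19.6, 11.8 and 14.6 CPM in supraspinatus libraries. Flexor libraries were all above supraspinatus libraries, by 1.29 ± 0.39 (adjusted p = 0.013), while Achilles and patellar libraries spread widely, with Achilles 1 at 45.3 and patellar 1 at 59.9 CPM. The difference of 0.99 ± 0.39 between patellar and supraspinatus tendon (adjusted p = 0.041) was 0.39 without patellar 1 (adjusted p = 0.28). Xcl1, the ligand of XCR1 made by T and NK cells, had at most 21 counts and was highest in patellar libraries, at 13, 17, 21 and 21 counts, against 6, 0, 4 and 8 in Achilles, 0, 3, 5 and 1 in flexor and 6, 0, 0 and 2 in supraspinatus libraries.

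Cx3cr1 (ENSRNOG00000018509) passed the test between Achilles and patellar tendon, as did Ackr2 among the receptors. It stood at 8.93, 11.8, 14.6 and 7.52 CPM in Achilles, 3.44, 2.03, 2.8 and 3.87 in patellar, 4.25, 5.27, 7.5 and 4.92 in flexor and 1.67, 2.85, 1.48 and 1.21 CPM in supraspinatus libraries. Every Achilles library was above every library of the other tendons, and flexor libraries were above patellar and supraspinatus libraries. Achilles exceeded patellar tendon by 1.82 ± 0.3 (adjusted p = 0.0044), supraspinatus tendon by 2.57 ± 0.31 (adjusted p = 1.4e-05) and flexor tendon by 0.97 ± 0.29 (adjusted p = 0.013). Of its calls, those between Achilles and patellar, Achilles and supraspinatus, and flexor and supraspinatus tendon (1.6 ± 0.3, adjusted p = 0.00049) remained in every setting tried. Those between flexor and patellar (0.85 ± 0.29, adjusted p = 0.024) and patellar and supraspinatus tendon (0.75 ± 0.29, adjusted p = 0.042) did not pass without flexor 3 (adjusted p = 0.092) and without patellar 4 (adjusted p = 0.13). The call between Achilles and flexor tendon was lost with the muscle covariate at the same difference of 0.97 (adjusted p = 0.076). The macrophage markers, whose sum overlapped between the tendons while single genes such as Adgre1 and Cd14 differed, are given with the cell type markers, and their part in the Cx3cr1 differences was not tested.

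Cxcr4, the signalling receptor of CXCL12, did not follow its ligand. It was at 5.55, 5.02, 5.44 and 7.38 CPM in Achilles, 9.09, 10.4, 9.32 and 14.6 in patellar, 3.4, 3.21, 7.49 and 4.82 in flexor and 7.61, 8.23, 11.4 and 11.8 CPM in supraspinatus libraries. Patellar and supraspinatus libraries were above all flexor libraries, by 1.2 ± 0.26 (adjusted p = 0.0016) and 1.05 ± 0.26 (adjusted p = 0.0042). Supraspinatus exceeded Achilles tendon by 0.74 ± 0.26 (adjusted p = 0.028), a difference of 0.33 with library totals (adjusted p = 0.26) and of 0.6 without supraspinatus 4 (adjusted p = 0.095), and patellar exceeded it by 0.89 ± 0.26, which did not pass (adjusted p = 0.061). Cxcr5, the B cell receptor of CXCL13, was lowest in flexor tendon, where its ligand had the highest mean. It was at 6.33, 6.62, 7.83 and 4.78 CPM in Achilles, 13.3, 9.52, 8.51 and 8.47 in patellar, 3.43, 3.01, 3.11 and 3.49 in flexor and 3.79, 4.32, 9.6 and 7.48 CPM in supraspinatus libraries. Patellar exceeded flexor tendon by 1.61 ± 0.26 (adjusted p = 0.00018) and Achilles exceeded it by 0.97 ± 0.26 (adjusted p = 0.0071), with no overlap. The B cell markers Ms4a1 and Cd79b were at far lower CPM than Cxcr5 and followed it only in part. Their means were 0.16 and 0.3 CPM in Achilles, 0.51 and 0.66 in patellar, 0.01 and 0.03 in flexor and 0.01 and 0.11 CPM in supraspinatus tendon (adjusted p = 9.8e-05 and 0.00016 among the tendons). Both had lower means in supraspinatus than in Achilles tendon, where Cxcr5 differed by 0.02 ± 0.26 and did not pass (adjusted p = 0.95). The part of these markers in the Cxcr5 differences was not tested. Between patellar and supraspinatus tendon its difference of 0.66 ± 0.26 (adjusted p = 0.042) was 0.47 without patellar 1 (adjusted p = 0.14).

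Ccr1 is a receptor of inflammatory CC ligands on monocytes and macrophages. It was at 9.65, 9.6, 11.5 and 6.58 CPM in Achilles, 7.19, 11, 14.5 and 13.1 in patellar, 6.73, 8.32, 7.54 and 8.15 in flexor and 3.52, 6.32, 5.33 and 1.54 CPM in supraspinatus libraries. Supraspinatus libraries were below all others, with 1.45 ± 0.34 between patellar and supraspinatus (adjusted p = 0.0021) and 1.16 ± 0.33 between Achilles and supraspinatus tendon (adjusted p = 0.0097). With the muscle covariate these fell to 0.58 (adjusted p = 0.54) and 0.35 (adjusted p = 0.73). The difference from flexor tendon (0.88 ± 0.33, adjusted p = 0.041) was lost in 13 of 26 settings, for example without flexor 2 (adjusted p = 0.096). Ccr10, the receptor of CCL27, was at 1.13, 1.38, 1.38 and 1.03 CPM in Achilles, 0.937, 1.21, 0.845 and 1.04 in patellar, 0.642, 0.958, 1.08 and 0.742 in flexor and 0.405, 1.08, 0.307 and 0.356 CPM in supraspinatus libraries. Achilles exceeded supraspinatus tendon by 1.19 ± 0.35 (adjusted p = 0.01), with supraspinatus 2 inside the Achilles range, and the call between patellar and supraspinatus tendon (adjusted p = 0.038) was lost in 15 of 26 settings, for example without supraspinatus 3 (adjusted p = 0.11). Xcr1, the receptor of cross-presenting dendritic cells, was at 2.17, 1.24, 1.11 and 1.18 CPM in Achilles and 0.195, 0.922, 1.62 and 2.26 CPM in patellar libraries. In flexor and supraspinatus libraries it had counts of 2, 6, 6 and 16 and 12, 1, 2 and 12, close to the floor. It passed between each hindlimb and each forelimb tendon, with adjusted p-values of 0.00072 for Achilles and 0.00086 for patellar against flexor tendon. Of the 4 dendritic cell markers outside the members, Clec9a, Flt3 and Itgax had higher means in Achilles (2.56, 3.8 and 2.65 CPM) and patellar tendon (3.86, 5.26 and 3.08 CPM) than in flexor (0.97, 1.76 and 0.55 CPM) and supraspinatus tendon (0.83, 0.59 and 0.76 CPM). The other, Zbtb46, which was the largest part of their sum, was highest in flexor tendon, at 25.48 CPM, against means of 14.97 CPM for patellar, 10.1 for Achilles and 7.93 CPM for supraspinatus tendon (adjusted p = 0.00024 among the tendons), and their part in the Xcr1 difference was not tested.

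**Figure D5:**
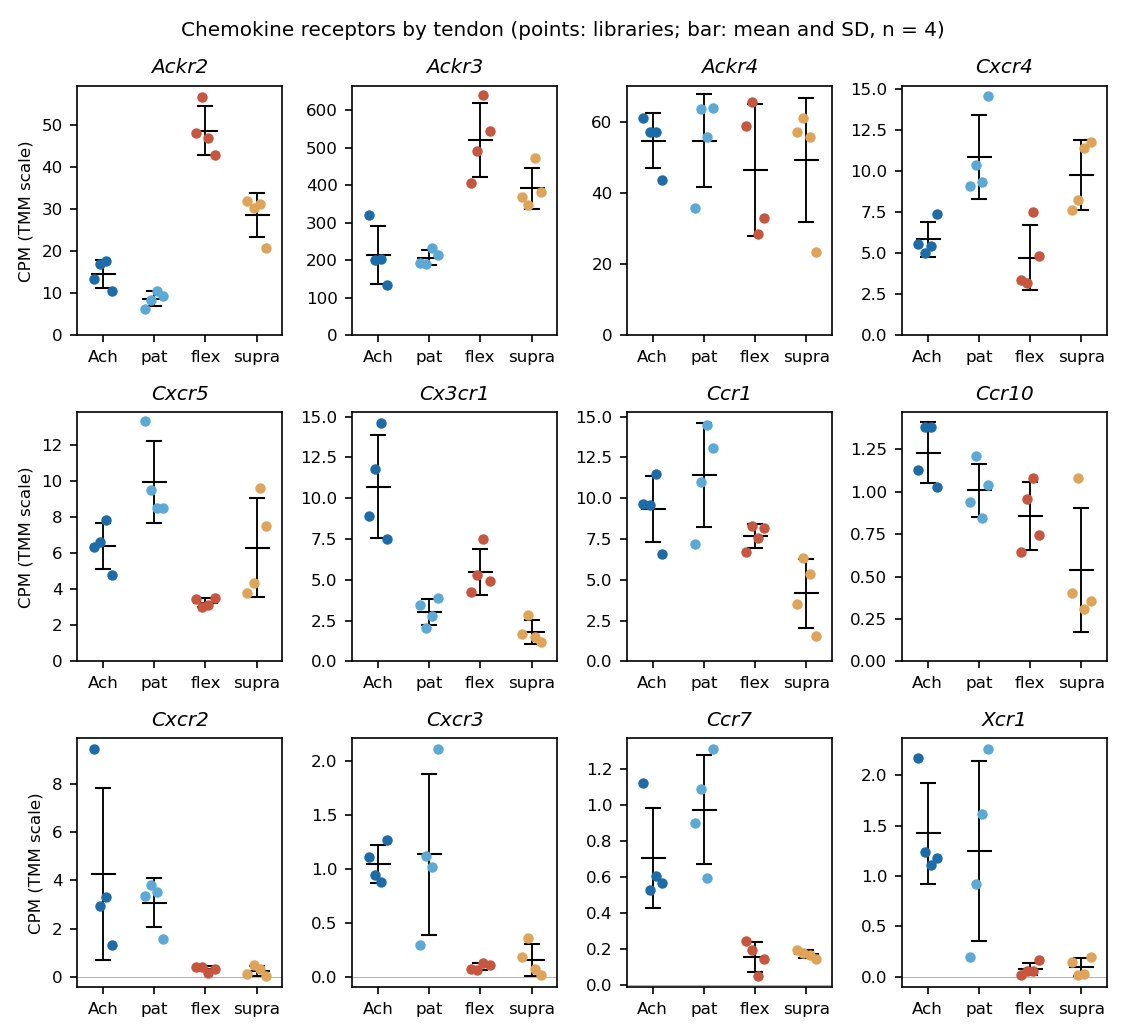
Levels of 12 receptors in CPM (vertical axes from 0, TMM scale) by tendon, with 1 point per library and the mean and SD of 4 libraries. Ackr2 and Ackr3 have their highest means in flexor tendon and are also higher in supraspinatus than in Achilles and patellar libraries, Ackr4 overlaps between the tendons, and Cx3cr1 is highest in the Achilles libraries.

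Of the atypical receptors, Ackr2 and Ackr3 were higher in the forelimb tendons, and Ackr4 did not differ by the test. Ackr2 (ENSRNOG00000019472), which binds and degrades inflammatory CC chemokines and is known from lymphatic endothelium, differed in all 6 pairs of tendons. It stood at 13.5, 17, 17.6 and 10.5 CPM in Achilles, 6.35, 8.41, 10.5 and 9.43 in patellar, 48, 56.7, 46.8 and 42.9 in flexor and 31.9, 30.3, 31.1 and 20.7 CPM in supraspinatus libraries. Flexor libraries were highest, then supraspinatus libraries, with no overlap between them or with the hindlimb tendons, and the lowest Achilles and the highest patellar library were both at 10.5 CPM. Flexor exceeded patellar tendon by 2.49 ± 0.2 (adjusted p = 4.2e-07), Achilles tendon by 1.73 ± 0.19 (adjusted p = 8.3e-06) and supraspinatus tendon by 0.77 ± 0.19 (adjusted p = 0.0037). Supraspinatus exceeded Achilles tendon by 0.96 ± 0.19 (adjusted p = 0.00073) and patellar tendon by 1.72 ± 0.19 (adjusted p = 7e-06). These 5 calls remained in every setting tried, while that of 0.76 ± 0.19 between Achilles and patellar tendon (adjusted p = 0.034) was lost in 9 of 26, for example without Achilles 2 (adjusted p = 0.1). The sum of the lymphatic endothelial markers did not follow this order, and it is given with its single genes under Ccl21. Their part in the Ackr2 differences was not tested.

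Ackr3 (ENSRNOG00000019622), the scavenger of CXCL12 and CXCL11 found on mesenchymal cells and vessels, was higher in the forelimb tendons, where Cxcl12 and Cxcl11 were lower. It was at 321, 202, 204 and 135 CPM in Achilles, 192, 191, 232 and 215 in patellar, 406, 491, 640 and 545 in flexor and 370, 347, 472 and 382 CPM in supraspinatus libraries. All flexor and supraspinatus libraries were above all Achilles and patellar libraries. Flexor exceeded patellar tendon by 1.33 ± 0.22 (adjusted p = 0.00016) and Achilles tendon by 1.27 ± 0.22 (adjusted p = 0.00025), and these remained in every setting tried. Supraspinatus exceeded Achilles tendon by 0.87 ± 0.21 (adjusted p = 0.0036) and patellar tendon by 0.92 ± 0.21 (adjusted p = 0.0021). With library totals these became 0.45 (adjusted p = 0.091) and 0.51 (adjusted p = 0.056). That scaling moved the median of all genes from 0.05 to 0.47 for Achilles and from 0.05 to 0.46 for patellar minus supraspinatus. Ackr4, which takes up CCL19 and CCL21, did not differ by the test (adjusted p = 0.84). It was at 61.2, 57.2, 57.2 and 43.7 CPM in Achilles, 35.9, 63.7, 55.7 and 63.9 in patellar, 58.9, 65.7, 28.5 and 33.1 in flexor and 57.1, 61.2, 55.7 and 23.6 CPM in supraspinatus libraries. Flexor 3, flexor 4 and supraspinatus 4 were the lowest libraries, which were also those high in Cxcl1. The atypical receptor gene Ackr1 was not analysed here.

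The remaining members were at low counts. Cxcr6, the receptor of CXCL16, had 22 to 170 counts and did not pass among the 4 tendons (adjusted p = 0.051). The 9 members left out by the filter were Ccl25, Ccl26, Ccl28, Cxcl3, Ccr1l1, Ccr4, Ccr8, Ccr9 and Cxcr1, with at most 18 counts in any library. Ccr1l1 is a near copy of Ccr1, and reads of the pair may be shared. 

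Genes that act with the chemokines were also counted. Of 28 tested genes of the chemokine system outside the members (G proteins, receptor kinases, arrestins, proteases and effectors of migration), 22 differed among the tendons, which is 78.6% where 75.6% of all tested genes did and so no result about them. Between Achilles and flexor tendon 11 were higher in Achilles (39.3%, all genes 23.5%) and 5 lower (17.9%, all genes 24.1%), with a median of 0.23 where all genes had 0.01. Between patellar and supraspinatus tendon 16 were higher (57.1%, all genes 28.8%) and 2 lower (7.14%, all genes 27.5%), with a median of 0.67 where all genes had 0.05. Rac2, a leukocyte GTPase, had a mean of 23.43 CPM in Achilles, 39.55 in patellar, 12.18 in flexor and 8.63 CPM in supraspinatus tendon (adjusted p = 3.3e-06 among the tendons). Rgs1, which dampens chemokine receptor signalling, had 2.66, 1.06, 19.11 and 9.12 CPM in the same order and was thus higher in the forelimb tendons (adjusted p = 3.9e-06). Grk6, a kinase that silences chemokine receptors, was highest in flexor tendon at 56.08 CPM, against 10.84 to 20.34 CPM in the others (adjusted p = 4e-08). Cd74, the invariant chain that also serves as the receptor of MIF, had 810.66, 1286.1, 195.24 and 234.29 CPM (adjusted p = 7.8e-06). Dpp4, a peptidase that trims CXCL10 and CXCL12, had 33.31, 95.22, 22.61 and 16.29 CPM (adjusted p = 0.00033).

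Of 25 tested cytokines, cytokine receptors and transcription factors known to induce chemokine genes, 20 differed among the tendons, which is 80% and again near the 75.6% of all genes. Between Achilles and flexor tendon 7 were higher in Achilles (28%, all genes 23.5%) and 8 lower (32%, all genes 24.1%), with a median of 0.25. Irf1, an interferon-induced factor, had 59.69 CPM in Achilles, 70.79 in patellar, 24.46 in flexor and 26.59 CPM in supraspinatus tendon (adjusted p = 6.2e-07). The NF-kB subunit Rela was highest in flexor tendon at 189.92 CPM, against 70.8 to 77.73 CPM in the others (adjusted p = 6.4e-08), and Nfkb1 stood at 55.98 CPM there, against 24.32 to 26.8 CPM (adjusted p = 2.3e-07). Cebpb, a factor of acute inflammation, had 76.83 ± 43.5 CPM in flexor tendon against means of 0.96 to 2.24 CPM (adjusted p = 5e-08), and Nfkbiz had 103.76 against 14.6 to 29.62 CPM (adjusted p = 3e-07). Other genes of the list went otherwise. Relb had 12.58 CPM in Achilles, 15.84 in patellar, 11.67 in flexor and 9.01 CPM in supraspinatus tendon (adjusted p = 0.00015). Il6st had 922.38, 1176.3, 558.43 and 505.41 CPM in the same order (adjusted p = 3e-05). Nfkbia was highest in supraspinatus tendon, at 259.08 CPM against 192.51 CPM in flexor tendon (adjusted p = 0.034). Interferon gamma itself, Ifng, had at most 2 counts and Tnf at most 13 counts in any library.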

How the data were processed

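Total RNA of 16 rat tendon libraries was analysed from the table of whole-number counts per gene deposited by the authors. The submitters' processing notes list HISAT2, FastQC, edgeR and the build rn6, with neither roles nor versions. How reads were counted, with which annotation and strand setting, is not given in the sources used here, so overlapping and antisense genes and near-identical copies may share reads. The authors' own table of comparisons was not used.

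Genes were filtered with filterByExpr (minimum count 10, minimum total 15), which left 16948 of 23285 genes, and scaled by TMM. The quasi-likelihood test of edgeR 4.0.16 on R 4.3.3 was fitted to all libraries, with 1 coefficient per tendon and 12 residual degrees of freedom. P-values were adjusted by Benjamini-Hochberg over all genes tested, with a threshold of 0.05. Members and lists were chosen with earlier results of these data known. Levels in every library are given for members with a mean of at least 5 CPM in some tendon, and for those of 1 to 5 CPM that passed among the 4 tendons; the rest are given by counts. Values of 1 tested member and 1 marker gene are not reported here, though both remain in the totals. On simulated data with 16746 genes, for Achilles against patellar tendon, 20, 66, 96 and 98% of the changed genes were found at 1.5, 2, 4 and 8-fold, and 6.04% of its calls were false. The changed genes were drawn from those with a mean of at least 1 CPM, and the other genes had the same mean in every tendon. These rates thus do not cover members at lower levels, or data in which most genes differ.

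Of the 55 members, 42 were matched by symbol to the RefSeq promoter table (GRCr8). Motifs were searched on both strands in the 250 upstream bases, leaving out the 50 bases after the start. Those not matched include Ccl2, Ccl3, Ccl4, Ccl5, Ccl11, Ccr4, Ccr7, Ccr8, Ccr9, Ccr10, Cxcl3 and Cxcr5. Alternatives were other scalings and filters, DESeq2 1.42.0, limma-voom (limma 3.58.1), a replicate block, a 2-fold threshold, a muscle covariate, pairs fitted alone, and fits without 1 library or without Achilles 1 and patellar 1 together.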

Additional observations from a re-analysis of the deposited data

Results flagged for a closer look

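In 15 of 144 groups of 4 libraries, the highest or lowest library of a member stood apart from the other 3 by Dixon's test, where chance flags about 1 in 20 groups. Supraspinatus 4 was the library apart for Cxcl1 (17 CPM, others 0.564 to 0.777), Cxcl2 (4.19, others 0 to 0.167), Ccl2 (30.4, others 14.8 to 17.3), Ackr2 (20.7, others 30.3 to 31.9) and Ackr4 (23.6, others 55.7 to 61.2 CPM). Achilles 1 stood apart for Ccl24 (54.8 CPM, others 16.7 to 21.5), Ccl6 (72.9, others 26.1 to 33.9), Ccl11 (5.01, others 1.53 to 1.89) and Xcr1 (2.17, others 1.11 to 1.24 CPM). Among flexor libraries, flexor 1 stood apart for Ccl21 (92.2 CPM, others 124 to 127) and Cxcl10 (0.925, others 0.467 to 0.495), and flexor 4 for Ccl11 (1.62, others 0.564 to 0.665 CPM). Among supraspinatus libraries, supraspinatus 3 stood apart for Ccl20 (0.335 CPM, others 0.0255 to 0.0485) and Ccl4 (0.279, others 0.535 to 0.552), and supraspinatus 2 for Ccr10 (1.08, others 0.307 to 0.405 CPM).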

How the results depend on the processing

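The counts of members called in each pair of tendons kept within 1.5 times of their value under other scalings, limma-voom, no filter, a 2-fold threshold and the fit without both Achilles 1 and patellar 1. A stricter filter of 1 CPM in 8 libraries left fewer members to test, and 22 in place of 36 then differed among the tendons, 17 between Achilles and flexor, 17 between Achilles and supraspinatus, 16 between flexor and patellar, 18 between patellar and supraspinatus and 2 between Achilles and patellar tendon. By direction, 12 were higher and 5 lower in Achilles than in flexor, and 14 higher and 3 lower in Achilles than in supraspinatus tendon. In patellar tendon 11 were higher and 5 lower than in flexor, and 15 higher and 3 lower than in supraspinatus tendon. The shares of all genes under this filter, the muscle covariate and the replicate block are not given here, so their counts have no background beside them. With the muscle covariate, 18 members differed between Achilles and flexor, 7 between Achilles and supraspinatus and 12 between patellar and supraspinatus tendon. Of those 12, 11 were among the 31 called without it. By direction, 15 were higher and 3 lower in Achilles than in flexor, and 5 higher and 2 lower than in supraspinatus tendon. In patellar tendon 18 were higher and 5 lower than in flexor, and 9 higher and 3 lower than in supraspinatus tendon. For Ackr4 (Achilles minus flexor, -0.01) and Ccl7 (patellar minus supraspinatus, -0.73), neither of them called, the sign turned with the covariate. Between Achilles and patellar tendon, 4 calls became 9 with DESeq2, 2 with the pair fitted alone, and 2 to 6 without each library in turn, with 2 without Achilles 2; the cause was not tested. Of the 135 calls over the 6 pairs, 65 were lost in no setting, 62 were lost with the muscle covariate and 1, Ccl6 between Achilles and supraspinatus tendon, turned in sign there.

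The titles number the libraries of each tendon as Rat_1 to Rat_4, and the labels do not say whether a number marks 1 animal. The 24 same-numbered pairs had correlations of -0.312 to 0.522 (median 0.0308), with 10 above 0.1, so the numbers were not taken to pair the samples. With a replicate block, 36 members differed among the tendons, and the pair counts were 27 (Achilles and flexor), 5 (Achilles and patellar), 28 (Achilles and supraspinatus), 30 (flexor and patellar), 14 (flexor and supraspinatus) and 31 (patellar and supraspinatus). Depth limits members under the floor of 0.0266 to 0.0485 CPM, for which differences were not detectable.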

Other observations

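Mif, which encodes macrophage migration inhibitory factor, a cytokine that binds CXCR2, CXCR4 and CD74, had 3364 counts (41.2 CPM) in supraspinatus 1 and at most 7 counts in each of the other 15 libraries. It was outside the tested genes, and no comparison rests on it.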
